A study of Mus musculus with 6 samples.

Results

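Wnt proteins are secreted, lipid-modified signals that bind Frizzled (Fzd) receptors and the coreceptors Lrp5 and Lrp6. In the canonical branch this stabilises beta-catenin, which enters the nucleus, joins Lef1 and the Tcf factors and turns on feedback targets such as Axin2. Noncanonical branches act through the cytoskeleton and calcium. Secreted frizzled-related proteins (Sfrp) bind Wnt proteins outside the cell, and Dickkopf proteins (Dkk) mostly act on the coreceptors. In the developing cortex the pathway is known for roles in regional patterning, progenitor division and axon growth. The genes described here were all rows of the deposited tables whose symbol is Wnt, Fzd, Sfrp or Dkk with a number (and a letter for some ligands), plus Lrp5, Lrp6, Lef1 and Axin2. That rule uses symbols only and gave 41 of 20367 genes: 19 Wnt ligands, 10 Fzd receptors, 2 coreceptors, 8 secreted inhibitors, and Lef1 and Axin2.

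RNA of sorted cortical cells from C57BL/6J mouse embryos was sequenced as 6 libraries. All embryos came from a heterozygous Tbr2(Eomes)-GFP parent and a homozygous DCX-mRFP parent, reporters that mark intermediate progenitors and young neurons. Cells showing GFP and RFP together form the group called IPN, neurons derived from intermediate progenitor cells, and cells showing RFP without GFP form the group called non-IPN. There was 1 library per group on embryonic days 13.5, 15.5 and 16.5 (E13.5, E15.5, E16.5). The E15.5 pair was made from 1000000 cells per group with no amplification, and the other 4 libraries from 10000 cells each with whole-transcriptome amplification. The gate defines non-IPN by the absence of GFP, so any DCX-positive cell of another origin can be in it. Cells were pooled and the labels name no separate animals. A level in CPM is the deposited value divided by its column total, times 1000000. Pairs of levels are given as IPN against non-IPN. The error of a difference between groups combines how far it varied over the 3 ages with the spread of other genes. For most genes limma gave the other genes more weight (median prior of 8.3 degrees of freedom against 2 residual). No age has a second library of a group. A gene was called when its Benjamini-Hochberg adjusted p over all 19561 tested genes was under 0.05.

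Column totals ran from 12583033 to 32522834, and a deposited value of 1 was worth 0.031 to 0.079 CPM. Marker lists differed between the gates. The 10 projection neuron markers summed to 4929.0 against 808.0 CPM on E13.5, 6694.1 against 608.8 on E15.5 and 8548.3 against 3903.0 on E16.5. Sums of the 10 interneuron markers were 27.5 to 72.6 CPM in IPN and 1580.3 to 5295.1 in non-IPN. The 12 microglia and macrophage markers reached at most 6.3 CPM in IPN, and 494.0 to 978.4 in non-IPN. The 10 radial glia markers summed to 1255.3 against 4368.9 CPM on E13.5, 396.3 against 653.9 on E15.5 and 554.2 against 1083.4 on E16.5. Hemoglobin genes took 4.925% of the E13.5 non-IPN library. The 13 endothelial and pericyte markers gave 12.8 to 28.2 CPM per library, the 10 meningeal markers at most 7.9 and the 8 choroid plexus markers at most 7.1. In sorted bulk cells, fewer cells of a type and less RNA per cell cannot be told apart.

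Most of the family was at low level. A mean of at least 10 CPM over the 6 libraries was reached by 11 members, a mean of 1 to 10 CPM by 11, and 19 were under 1 CPM. Wnt11 and Wnt16 were listed at 0 in every library, which left 39 members tested. In 16 members no library reached 1 CPM: Wnt1, Wnt2, Wnt3a, Wnt6, Wnt8a, Wnt9a, Wnt9b, Wnt10a, Wnt10b, Wnt11, Wnt16, Fzd10, Sfrp5, Dkk1, Dkk2 and Dkk4. All 41 members together made up 896.47 to 1404.46 CPM per library. The heat map of levels shows this contrast between a few genes with high CPM and a large remainder near 0.

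**Figure D1:**
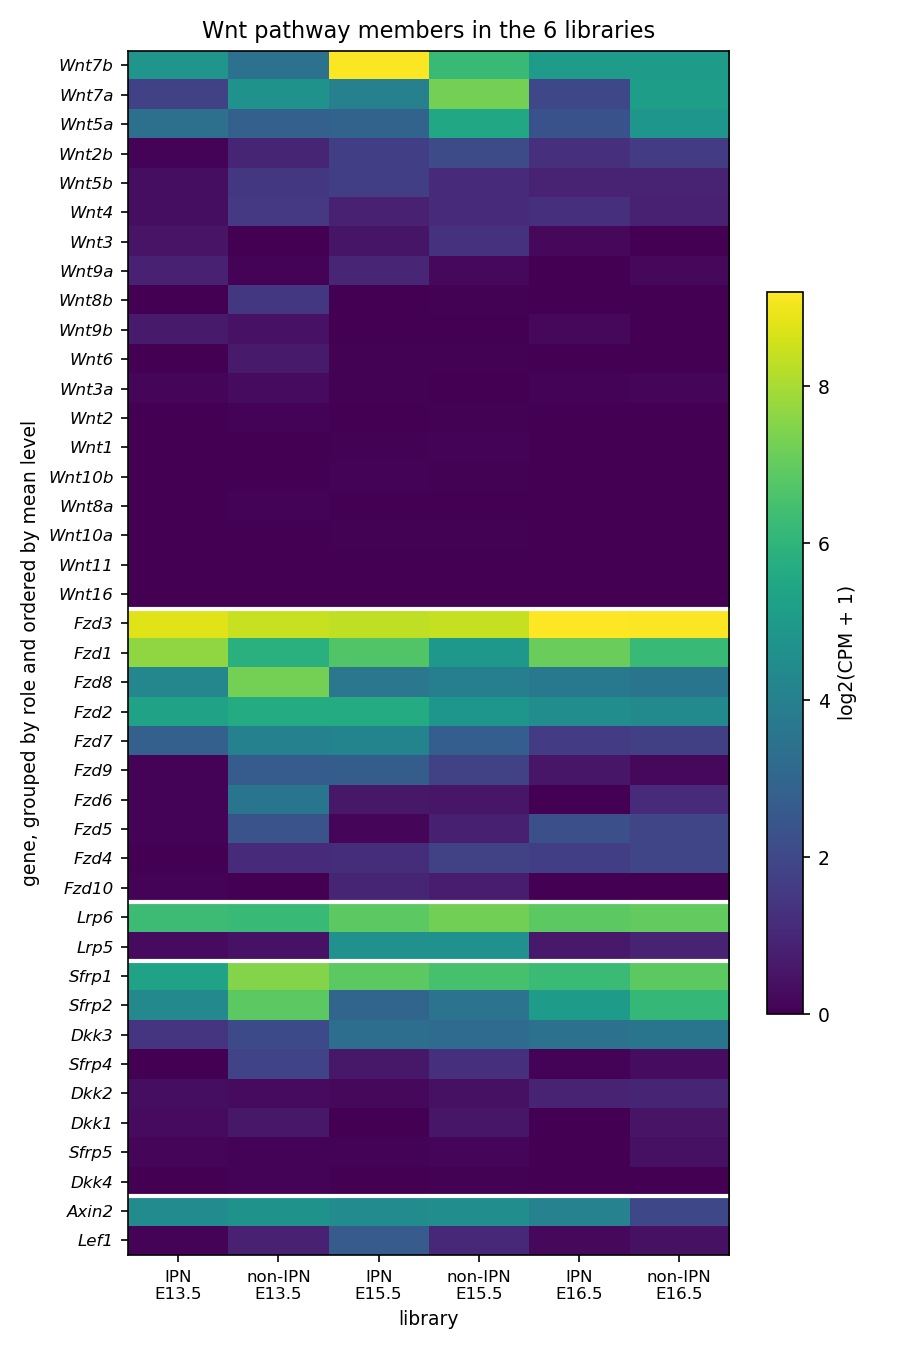
Level of the 41 genes (rows, grouped by role and ordered by mean level) in the 6 libraries (columns), as log2(CPM + 1). Fzd3 is bright in every library, Wnt7b is brightest in IPN at E15.5, and most Wnt ligands are dark throughout.

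Between the groups, 2 of 39 members were called, Wnt7a lower and Fzd1 higher in IPN. Of all genes tested, 3.39% were called, 0.982% higher and 2.41% lower in IPN. The members' share was thus close to the background. The median log2 difference of the 39 members was -0.34, beside -0.02 over all genes. Among the 22 members with a mean of at least 1 CPM, the deposited value was higher in IPN at all 3 ages in 2 (Fzd1 and Wnt7b). This was a pattern of 20.6% of all such genes. In CPM, Wnt7b was nearly equal on E16.5, at 33.2 against 33.1. The deposited value was lower in IPN at all 3 ages in 4 (Wnt7a, Sfrp2, Wnt2b and Fzd4), a pattern of 19.1%. The 3 IPN levels lay above all non-IPN levels in Fzd1 alone of these 22 (1.75% of all such genes) and below them in Wnt7a alone (7.47%).

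The upstream promoter sequences of Wnt7a and Fzd1 are shown because these 2 genes were the members called between the groups. Each is the 250 bases before the RefSeq transcription start in build GRCm38.p6, 5′ to 3′ on the gene's strand. The coordinates belong to that build and not to mm9, which the submitters' processing notes name. Wnt7a lies on the minus strand at chr6:91411354-91411603 and Fzd1 on the minus strand at chr5:4758217-4758466. Capitals would mark the TCF/LEF letters searched, CTTTG followed by AA, AT, TA or TT, and neither window holds them on either strand.
Wnt7a: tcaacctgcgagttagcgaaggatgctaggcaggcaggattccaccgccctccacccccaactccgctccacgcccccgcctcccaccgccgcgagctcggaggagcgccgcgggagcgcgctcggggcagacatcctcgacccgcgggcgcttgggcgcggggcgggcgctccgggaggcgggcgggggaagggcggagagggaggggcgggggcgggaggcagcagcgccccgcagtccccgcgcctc
Fzd1: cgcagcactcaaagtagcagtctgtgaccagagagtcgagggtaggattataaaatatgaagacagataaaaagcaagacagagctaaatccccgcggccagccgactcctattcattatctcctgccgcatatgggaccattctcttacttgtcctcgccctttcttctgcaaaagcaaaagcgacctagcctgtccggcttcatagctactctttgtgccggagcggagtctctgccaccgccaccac

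The Wnt7a window is 77.6% G and C with 34 CpG dinucleotides, and the Fzd1 window is 51.2% with 12. The median of all 32851 windows in the RefSeq table was 52.4%, and 6 CpG. Over the members' own windows the medians were 66.8% and 20 CpG. Windows were found for 27 of the 41 members, 33 in all, and 5 of them (15.2%) held the TCF/LEF letters, beside 14.8% of all windows. Those 5 belonged to Dkk1, Fzd7, Lef1, Wnt11 and Wnt5b. A match of letters describes the window and is not a binding site.

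Wnt7a, a ligand known from neural progenitors and for canonical signaling in the brain, stood at 2.52 against 25.5 CPM on E13.5, 14.9 against 155 on E15.5 and 3.01 against 33.8 on E16.5. The lowest non-IPN level therefore lay above the highest IPN level, and within each age the gap was nearly the same size. Non-IPN had 10.1, 10.4 and 11.2 times the IPN level, in order of age. The fitted log2 difference, IPN minus non-IPN, was -3.24 ± 0.36 (SE; limma, adjusted p = 0.00101). Its slope with age was -0.03 ± 0.24 log2 units per day (limma, adjusted p = 0.959). All 10 interneuron and all 12 microglia markers were called lower in IPN, as was 1 of 10 radial glia markers (Sox2), and their part in the Wnt7a difference was not tested. Without the E15.5 pair, when 0.28% of all genes were called, the estimate was -3.20 and was not called (limma, adjusted p = 0.116).

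Fzd1, a Frizzled receptor used in canonical signaling, had the opposite direction. It stood at 203 against 56.9 CPM on E13.5, 102 against 29.2 on E15.5 and 135 against 73.4 on E16.5. IPN was the higher library at each age, by 3.57, 3.51 and 1.84 times, and no non-IPN level reached an IPN level. The fitted log2 difference was 1.65 ± 0.25 (limma, adjusted p = 0.0051). With the E15.5 pair left out it was 1.54 and missed the threshold (limma, adjusted p = 0.169). Scaling by column totals gave 1.49, also not called (limma, adjusted p = 0.0734).

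**Figure D2:**
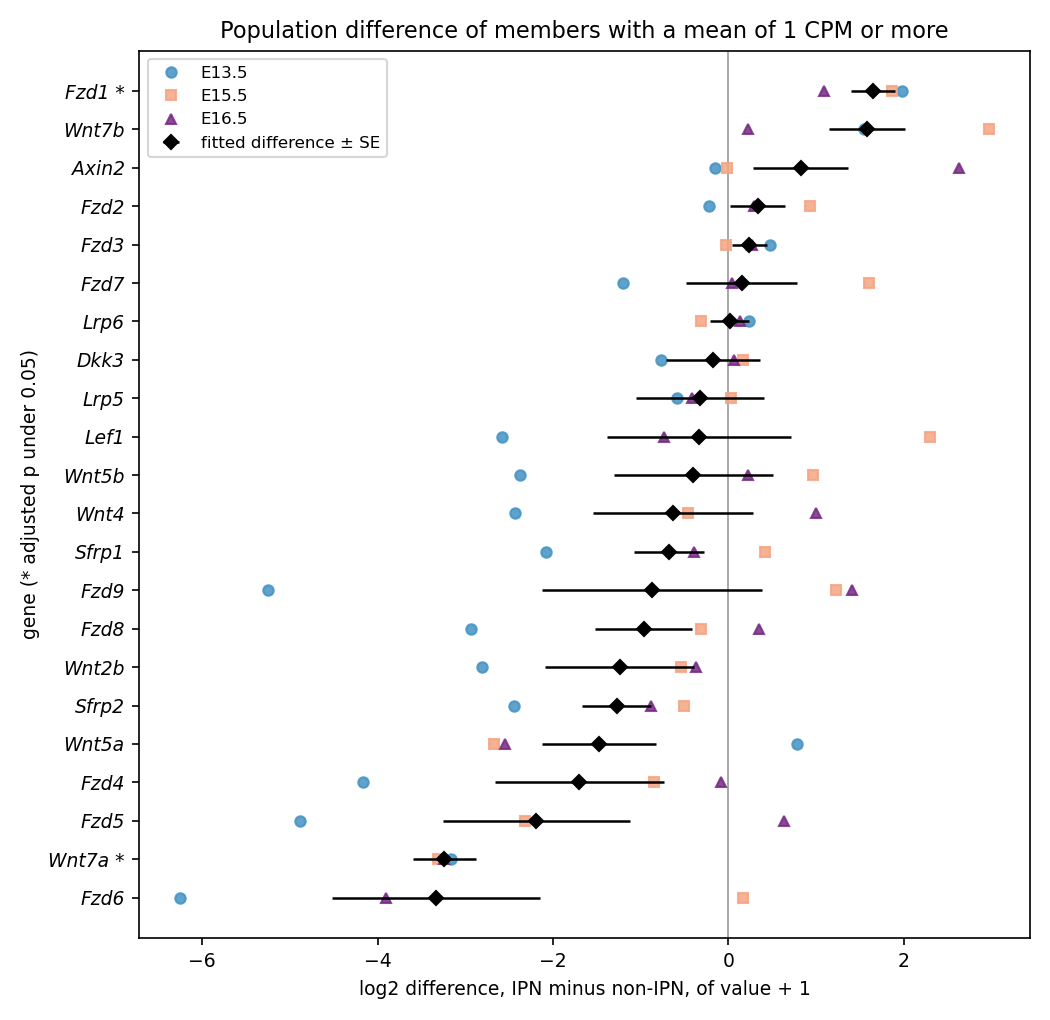
Log2 difference between IPN and non-IPN of the deposited value + 1 (x axis) for the 22 members with a mean of at least 1 CPM (y axis). Colored symbols are the 3 ages, and diamonds with bars are the fitted difference ± SE. The 3 ages of Wnt7a coincide near -3.24, while those of Fzd5, Fzd6 and Fzd9 spread widely with E13.5 far to the left.

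The other ligands above 10 CPM on average, Wnt7b and Wnt5a, varied more between ages. Wnt7b, a close relative of Wnt7a known from cortical neurons, stood at 26.8 against 10.1 CPM on E13.5, 568 against 74.9 on E15.5 and 33.2 against 33.1 on E16.5. IPN thus had 2.66 and 7.59 times the non-IPN level at the first 2 ages, and the groups were level on E16.5. Projection neuron markers had their highest non-IPN sum on E16.5, 3903.0 CPM, and their part in the Wnt7b levels was not tested. The fitted difference of 1.58 ± 0.43 was not called (limma, adjusted p = 0.0927). Without the E16.5 pair, when 3.16% of all genes were called, it was 2.26 and was called (limma, adjusted p = 0.0126).

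Wnt5a, the prototype noncanonical ligand, stood at 9.63 against 6.15 CPM on E13.5, 6.64 against 44.0 on E15.5 and 4.04 against 27.7 on E16.5. IPN was the higher library on E13.5, and non-IPN had 6.62 and 6.87 times the IPN level later. The difference of -1.48 ± 0.65 was not called (limma, adjusted p = 0.352). Without the E13.5 pair, when 3.06% of all genes were called, it was -2.61 and was called (limma, adjusted p = 0.0196). The change of the difference with age was -1.20 ± 0.30 log2 units per day (limma, adjusted p = 0.0593). In limma it passed with column totals (adjusted p = 0.0178), with median-of-ratios scaling (0.00344) and with a pseudocount of 0.5 (0.0272). Those settings called 906, 1558 and 530 slopes over all genes, beside 255 in the first analysis. The Wnt5a slope was not called with a pseudocount of 16 or with trend and robust options off. Nor was it called with genes filtered at a mean of 1 or 10 CPM.

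CPM is not corrected for transcript length, so shares of a family are given per kilobase of the longest coding GENCODE transcript. On that scale Wnt7b made up 73.2%, 95.4% and 78.0% of the summed ligand level in IPN, in order of age. In non-IPN, Wnt7a was first, with 55.8%, 61.4% and 41.6%, followed by Wnt7b with 20.6%, 27.7% and 38.0%. On E16.5 these were 10.6 and 9.72 CPM per kilobase in non-IPN, an order that 1 library cannot separate. Wnt2b, a ligand of the cortical hem, stood at 0.065 against 0.930 CPM on E13.5, 2.25 against 3.41 on E15.5 and 1.37 against 2.07 on E16.5. Wnt4 and Wnt5b reached at most 1.86 and 2.25 CPM. Wnt3 reached 1.53 CPM (non-IPN, E15.5) and Wnt8b 1.79 (non-IPN, E13.5).

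**Figure D3:**
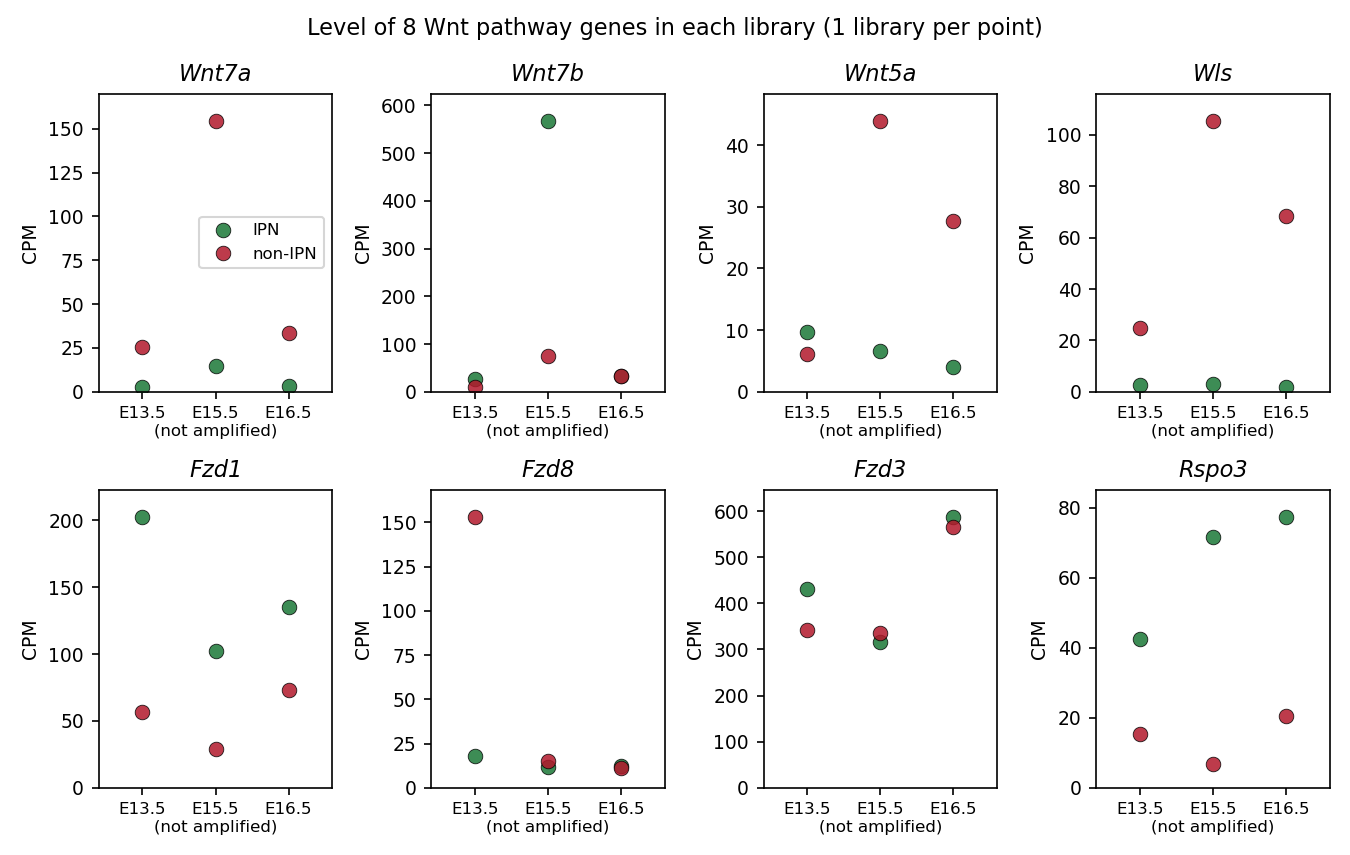
Level in CPM (y axis, linear, from 0) of 8 genes by embryonic day (x axis), with 1 point per library, colored by group. Wnt7a and Wls lie lower and Fzd1 and Rspo3 higher in IPN at all 3 ages, Fzd3 differs little within an age, and Fzd8 differs at E13.5.

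Fzd3, a receptor known for axon guidance and planar polarity, stood at 431 against 342 CPM on E13.5, 317 against 335 on E15.5 and 588 against 566 on E16.5. The order of the groups turned over on E15.5, and both E16.5 libraries lay above the other 4. The fitted difference was 0.24 ± 0.20 (limma, adjusted p = 0.686), with a 95% interval of -0.20 to 0.68. Per kilobase, Fzd1 and Fzd3 led in IPN, with 48.3 and 33.9 CPM per kilobase on E13.5, 24.4 and 24.9 on E15.5, and 32.2 and 46.2 on E16.5. Fzd3 led in non-IPN, with 26.9, 26.3 and 44.4 CPM per kilobase in order of age. Next to it came Fzd8 on E13.5 with 25.7, Fzd2 on E15.5 with 7.44 and Fzd1 on E16.5 with 17.5.

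Fzd8, a receptor of neural progenitors, was the 1 member of 39 whose difference between groups was called as changing with age. Of all genes 1.3% were called there, 0.624% with a positive and 0.68% with a negative slope. It stood at 18.03 against 153 CPM on E13.5, 11.5 against 14.9 on E15.5 and 12.2 against 11.05 on E16.5. The E13.5 non-IPN library alone stood high, at 8.50 times the IPN level, and the other 5 libraries lay between 11.05 and 18.03 CPM. The slope was 1.13 ± 0.22 log2 units per day (limma, adjusted p = 0.0218). This call was lost in limma with a pseudocount of 16 (adjusted p = 0.196) and with its trend and robust options off (adjusted p = 0.401).

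The library with this Fzd8 level also had the highest radial glia and cell cycle sums. Its 10 cell cycle markers summed to 4154.9 CPM, against 1275.2 in IPN of that age and at most 668.4 later. Axin2, Fzd5, Fzd6, Fzd8, Sfrp1, Sfrp2 and Wnt4 all had their highest level in that library. These are 7 of 22 members with a mean of at least 1 CPM, where 19.6% of all such genes had their maximum there. The part of progenitor RNA in these levels was not tested.

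Fzd2, another Frizzled receptor, stood at 38.2 against 49.3 CPM on E13.5, 49.96 against 27.2 on E15.5 and 21.5 against 20.4 on E16.5, so its order turned over (0.33 ± 0.31; limma, adjusted p = 0.722). Fzd7 did likewise, at 6.14 against 15.7, 16.9 against 5.74 and 2.12 against 2.38 CPM. Fzd9 was at 0.065 against 5.36, 5.60 against 2.46 and 0.479 against 0.159 CPM. Its slope with age was the steepest of the tested members, 2.37 ± 0.60 log2 units per day, and was not called (limma, adjusted p = 0.0627). Fzd6 was at 0.065 against 10.9, 0.523 against 0.478 and 0 against 1.11 CPM, with its high value on E13.5 in non-IPN. Fzd5 was at 0.065 against 4.15, 0.123 against 0.766 and 3.76 against 2.78 CPM. Fzd4 was at 0 against 1.22, 1.32 against 2.49 and 2.26 against 2.78 CPM. In IPN on E13.5, 0.065 CPM is a deposited value of 1.

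For the coreceptors no difference between groups was called. Lrp6 stood at 77.7 against 73.2 CPM on E13.5, 118 against 152 on E15.5 and 118 against 125 on E16.5. Its fitted difference was 0.02 ± 0.22 (limma, adjusted p = 0.991), with a 95% interval of -0.48 to 0.51. Lrp5 stood at 0.194 against 0.358 CPM on E13.5, 23.9 against 24.3 on E15.5 and 0.547 against 0.874 on E16.5. Both E15.5 libraries thus lay far above the 4 amplified ones (group difference -0.32 ± 0.73; limma, adjusted p = 0.877).

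Per kilobase, Sfrp1 and Sfrp2 lay above the other 6 secreted inhibitors in every library. Sfrp1, a progenitor gene of the cortex, stood at 38.3 against 178 CPM on E13.5, 117 against 90.5 on E15.5 and 76.7 against 116 on E16.5. Its order turned over on E15.5, and the fitted difference was -0.68 ± 0.40 (limma, adjusted p = 0.53). Sfrp2 stood at 19.3 against 116 CPM on E13.5, 7.10 against 10.5 on E15.5 and 32.6 against 69.7 on E16.5. Non-IPN was higher at each age, by 6.02, 1.47 and 2.14 times, but the difference of -1.28 ± 0.39 was not called (limma, adjusted p = 0.143). Dkk3, a divergent Dickkopf member, was at 1.68 against 3.22, 9.04 against 8.36 and 9.99 against 11.05 CPM. Dkk1, Dkk2 and Dkk4 stayed under 1 CPM and Sfrp4 reached at most 2.65. Limma called 0 of these 8 inhibitors between groups, and 3 had an unadjusted p under 0.05, as had 13.6% of all genes.

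Axin2, the feedback inhibitor commonly read as a canonical target, stood at 20.9 against 25.6 CPM on E13.5, 20.8 against 21.8 on E15.5 and 16.1 against 2.94 on E16.5. The E16.5 non-IPN library was the low one, and the other 5 lay between 16.1 and 25.6. Limma called neither the group difference (0.83 ± 0.54, adjusted p = 0.587) nor its slope (0.81 ± 0.30 per day, adjusted p = 0.201). Lef1, the nuclear partner, was at 0.065 against 0.787, 5.29 against 1.08 and 0.137 against 0.318 CPM (-0.34 ± 1.05; limma, adjusted p = 0.92).

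From E13.5 to E16.5, the amplified ages, limma called 0 of 39 members, where it called 6.02% of all genes, 3.76% higher and 2.26% lower on E16.5. At an unadjusted p under 0.05 there were 7 members, where 21.6% of all genes were. With trend and robust options off, limma called 0 as well, with 4 members and 17.5% of all genes at an unadjusted p under 0.05. The members above 10 CPM on average with the largest fitted changes were Fzd8 (-2.29 ± 0.68, adjusted p = 0.0775), Axin2 (-1.85 ± 0.66, adjusted p = 0.135) and Fzd2 (-1.16 ± 0.38, adjusted p = 0.105), all by limma. For Fzd8 the change was -0.65 in IPN and -3.94 in non-IPN, and for Axin2 it was -0.46 and -3.24. Wnt7a had 0.17 and 0.25, and Fzd1 -0.67 and 0.22. All 10 cell cycle markers fell between these ages, and their part in the members' changes was not tested.

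Levels on E15.5 were not compared with the other ages by a test, because amplification and cell number changed with age and cannot be told apart from it. The members show the size of that step. On the log2(CPM + 1) scale, Lrp5 on E15.5 lay 4.195 above the mean of the amplified ages in IPN and 3.99 in non-IPN. Wnt7b lay 4.204 and 1.97 above, Wnt7a 2.09 and 2.36 above. Fzd3 had steps of -0.67 and -0.39. The step moved with the GC content of transcripts. The GC-poorest decile of genes had a median step of -0.67 in IPN and -0.58 in non-IPN, and the GC-richest had 2.22 and 1.97. Spearman's rho across genes was 0.61 over 11952 genes in IPN and 0.55 over 12868 in non-IPN, a description within the same libraries. The transcripts of Lrp5 (58.6% GC) and Wnt7b (59.4%) belong to the GC-richest decile and that of Fzd3 (40.3%) to the poorest. Fzd1, at 55.7% GC, had steps of -0.69 and -1.12.

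**Figure D4:**
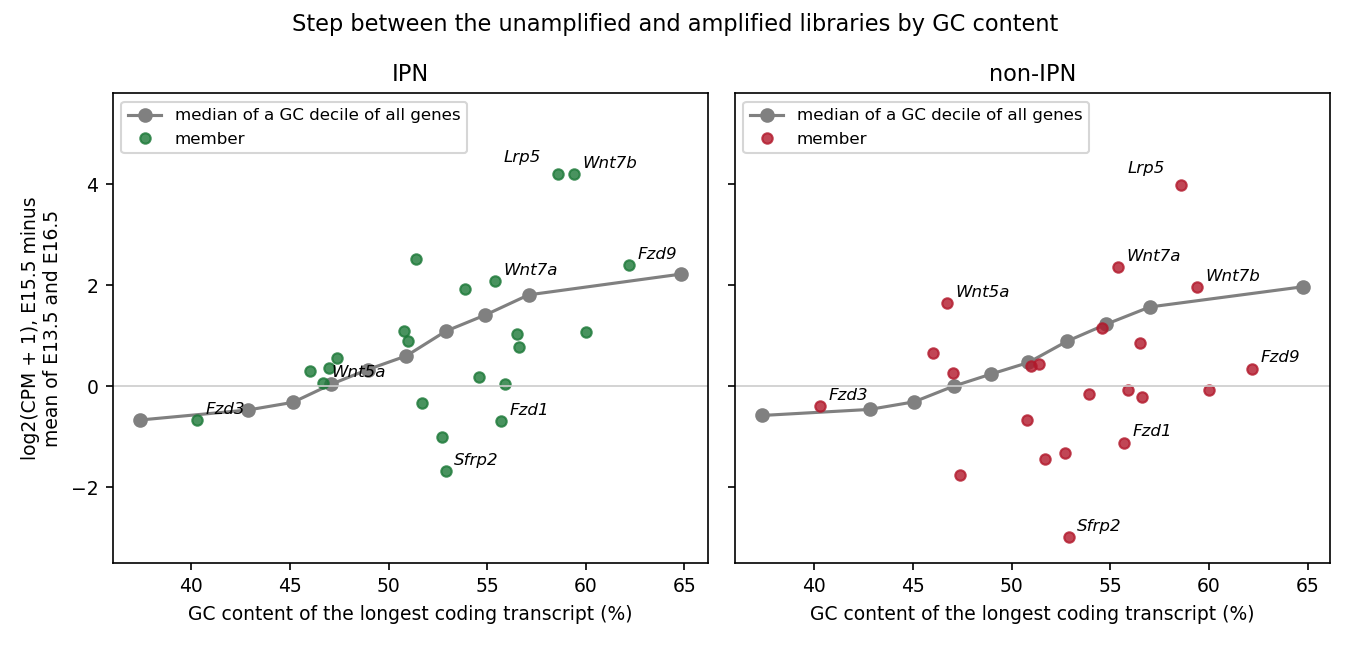
Difference in log2(CPM + 1) between E15.5 and the mean of E13.5 and E16.5 (y axis) against transcript GC content (x axis) in IPN (left) and non-IPN (right). Gray points are medians of GC deciles of all genes with a mean of at least 1 CPM in that group, joined by a line, and colored points are members. The gray line rises from -0.67 to 2.22 in IPN, with Lrp5 above it in both panels and Fzd1 and Sfrp2 below it.

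Beyond the family, 2 of 16 genes of Wnt release and surface cofactors were called between groups, Wls lower and Rspo3 higher in IPN. The share over all genes was 3.39%. Wls carries Wnt proteins through the secretory pathway. It stood at 2.46 against 24.7 CPM on E13.5, 3.14 against 106 on E15.5 and 1.78 against 68.3 on E16.5. Every IPN level lay under every non-IPN level, as for Wnt7a, with a log2 difference of -4.38 ± 0.49 (limma, adjusted p = 0.00101). Rspo3, a secreted protein that strengthens Wnt signaling, stood at 42.5 against 15.4, 71.8 against 6.70 and 77.5 against 20.5 CPM. Its IPN levels all lay above the non-IPN levels, with a difference of 2.40 ± 0.38 (limma, adjusted p = 0.00613). Neither was called without the E15.5 pair (limma, adjusted p = 0.0895 for Wls and 0.163 for Rspo3). Rspo3 also missed limma's threshold with column totals (adjusted p = 0.0889) and a pseudocount of 16 (0.0584).

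The list of known beta-catenin targets had 1 gene higher and 1 lower of 17, beside 0.982% and 2.41% of all genes. Limma gave 9 of the 17 an unadjusted p under 0.05, beside 13.6% of all genes. Of these, Apcdd1, Id2, Nkd1 and Notum were higher in IPN, and Bambi, Ccnd1, Cd44, Myc and Sp5 were lower. Notum was at most 0.137 CPM. Id2, a helix-loop-helix inhibitor with many other inputs, stood at 613 against 123 CPM on E13.5, 410 against 52.0 on E15.5 and 2247 against 1271 on E16.5. IPN was higher within each age (2.18 ± 0.32; limma, adjusted p = 0.00458), and the call was lost in 6 of 11 other settings. Cd44, a surface glycoprotein also made by immune cells, was at most 0.065 CPM in IPN and 1.001 to 1.467 in non-IPN (-3.66 ± 0.87; limma, adjusted p = 0.0493). Its call was lost in 9 of 9 other settings. All 12 microglia markers were called lower in IPN too, and their part in the Cd44 value was not tested.

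In the 4 other lists, with 15 further inhibitors, 20 cytoplasmic genes, 13 nuclear partners and 16 genes of the noncanonical arm, limma called 0 genes between groups, and 12 of 64 had an unadjusted p under 0.05, beside 13.6% of all genes. Ctnnb1, which encodes beta-catenin, stood at 3588 against 3560 CPM on E13.5, 1099 against 1002 on E15.5 and 2855 against 2521 on E16.5 (0.25 ± 0.17; limma, adjusted p = 0.603). It had the highest summed CPM of the uncalled genes in its list, and such genes of the other lists follow. The receptor Ryk had a log2 difference of 0.47 ± 0.25, the inhibitor Draxin 0.57 ± 0.23, the target Tnfrsf19 0.29 ± 0.56 and the corepressor Tle4 1.24 ± 0.37 (limma, adjusted p = 0.479, 0.312, 0.858 and 0.133). Dact1, a Dishevelled-binding protein, stood at 465 against 349 CPM on E13.5, 125 against 524 on E15.5 and 138 against 755 on E16.5. Its order turned over after E13.5 (-1.23 ± 0.51; limma, adjusted p = 0.35).

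Between E13.5 and E16.5 several genes of the wider pathway were called by limma. Of all genes, 3.76% were called higher and 2.26% lower on E16.5. The share was larger among well-expressed genes. With genes filtered at a mean of 10 CPM, 792 of 9349 were called higher and 521 lower. Of 20 cytoplasmic genes 5 rose, among them the tankyrase Tnks (2.57 ± 0.30), Apc2 (2.50 ± 0.30), Fam123b, known today as Amer1 (1.68 ± 0.37), and Apc, a scaffold of the beta-catenin destruction complex (1.65 ± 0.23). Their adjusted p by limma was 0.00177, 0.00236, 0.0281 and 0.00438. Apc stood at 323 against 370 CPM on E13.5 and 1136 against 1222 on E16.5. Of 16 noncanonical genes 5 rose, including Camk2b (2.68 ± 0.43), Prickle2 (2.36 ± 0.44), Celsr3 (1.88 ± 0.40) and Prkca (1.78 ± 0.34), and Celsr1 fell (-1.55 ± 0.32). Of the 13 genes listed as nuclear partners Bcl9 rose (2.73 ± 0.55), and Tcf7l1 (-4.98 ± 1.14) and Cbx1 (-1.44 ± 0.36) fell. Whether Cbx1 acts with beta-catenin in these cells was not tested. The inhibitor Sostdc1 (4.93 ± 1.12) and the target Id2 (2.50 ± 0.40) also rose. Sostdc1 and Tcf7l1 were low, with at most 11.01 and 14.2 CPM in any library. Fitted within the 4 amplified libraries alone, limma called only Apc and Id2 of the pathway genes called here (adjusted p = 0.0416 each). Of 16 release and surface genes limma called 0, and 1 had an unadjusted p under 0.05, beside 21.6% of all genes. Leaving out any 1 of the 4 amplified libraries left 0 calls among all genes in limma, with 1809 to 4025 at an unadjusted p under 0.05.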

How the data were processed

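The submitters' processing notes name CASAVA 1.9, TopHat 1.2.0, SAMtools 0.1.18, edgeR and build mm9. What each tool did, how reads were counted and how values were scaled is not given in the sources used here. The deposited values are whole numbers and were treated as a signal scaled by the authors, not as raw counts, because upper quartiles were 1501.5 and 1501.0 for E15.5 and 438.0 to 444.0 for the other 4 libraries while column totals differed. True depth is therefore unknown, and counting intervals were not computed.

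The 6 tables were joined by symbol, and 6 of 20373 rows with a repeated symbol were left out. Genes above 0 in at least 1 library were fitted on log2(value + 1) with limma 3.58.1 (R 4.3.3), using its trend and robust options, so the fold changes printed for low genes are too small. One model held group and age (2 residual degrees of freedom, median prior 8.3). The other also held the slope of the group difference over embryonic day (1 residual, median prior 14.5). Age pairs the libraries, since the labels' protocols describe sorting both groups from the same tissue. P-values rest on a gene's spread between these libraries, weighed with the spread of other genes. They measure no spread between replicate libraries of a group and age, because none were made. The fits were tested on simulated data. Alternatives were other scalings, pseudocounts, filters, limma options and libraries left out.

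Every library's value is given for the 20 members with the highest summed CPM and for called members. From each other pathway list, up to 4 called genes per direction and the uncalled gene between groups with the highest summed CPM are named. The members and lists were chosen with earlier results of these data known. Transcript length and GC content came from GENCODE M21 (GRCm38), not the authors' build, for 20010 of 20367 genes. All 97 pathway and 121 marker list entries were found, some under older symbols.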

Additional observations from a re-analysis of the deposited data

Results flagged for a closer look

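Limma's test called a change of the group difference with embryonic day in 5 genes of the family and the wider pathway lists. These hold 39 tested members and 97 list entries, with some genes on more than 1 list. The share over all genes was 1.3%. Fzd8 had 1.13 log2 units per day, through its level of 153 CPM in the E13.5 non-IPN library. Dact1 had -0.98 per day (limma, adjusted p = 0.0114), with IPN higher on E13.5 and lower at both later ages. Porcn, the enzyme that attaches the lipid to Wnt proteins, had -1.13 per day (limma, adjusted p = 0.0472). It stood at 12.8 against 1.65 CPM on E13.5, 46.9 against 48.0 on E15.5 and 11.6 against 15.0 on E16.5. Rspo2, a relative of Rspo3, had 2.44 per day (limma, adjusted p = 0.0435), with 0.065 against 13.9, 1.32 against 0.925 and 8.21 against 8.66 CPM. Tcf7l2, a partner of beta-catenin, had 2.74 per day (limma, adjusted p = 0.0284). It was listed at 0 against 15.2 CPM on E13.5, and all 4 later levels were 1.29 to 2.15. All 5 calls were lost with a pseudocount of 16 and with limma's trend and robust options off. With genes filtered at a mean of 1 CPM, limma also lost Porcn (adjusted p = 0.0558) and Rspo2 (0.0598), and at 10 CPM Porcn (0.0607).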

How the results depend on the processing

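The count of 2 members called between groups was 1 with column totals, 0 without trend and robust options, and 0 without the age term, that is, with no replicate block pairing the libraries. Leaving out 1 pair of libraries gave 0 to 3 called members, with 0 when the unamplified E15.5 pair was missing. The 1 member with a called slope became 3 with column totals, 8 with median-of-ratios scaling, 3 with a pseudocount of 0.5, 0 with a pseudocount of 16 and 0 without trend and robust options. The count between ages was 0 in every setting run. Genes called in the first analysis and named here kept their direction in every setting run. Over all genes, the 664 calls between groups became 196 with column totals, 220 with a pseudocount of 16, and 0 without trend and robust options or without the age term. The 1178 between ages became 97 within the 4 amplified libraries. The 255 called slopes became 1558 with median-of-ratios scaling and 3 with a pseudocount of 16. The cause was not tested. Leaving out a pair was not possible for the slope, which then has no residual degrees of freedom.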

Other observations

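The 11 markers listed for Cajal-Retzius cells and the cortical hem, a signaling center at the edge of the cortex, did not peak in one library. They summed to 694.9 against 447.1 CPM on E13.5, 760.1 against 1620.2 on E15.5 and 344.2 against 608.0 on E16.5. Reln alone made up most of each sum, with 613 against 304, 688 against 1510 and 306 against 573 CPM. The E13.5 non-IPN library held the highest level of 5 of the 11 markers (Ebf2, Ebf3, Lmx1a, Rspo1 and Rspo2). The E15.5 non-IPN library held that of 5 others (Gdf7, Lhx1, Lhx5, Reln and Trp73). Among Wnt ligands known from the hem, picked after their values were seen, Wnt8b reached 1.79 CPM in the first of these, with no more than 0.032 CPM elsewhere. Wnt2b had 0.930 CPM in the first and 3.41 in the other, with 2.25 in IPN on E15.5 and 1.37 in IPN on E16.5. Wnt3a stayed at or under 0.215 CPM in every library. Wnt5a had 6.15 CPM in the first, under its 9.63 in IPN of that age, and 44.0 in the other.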
